A study of Mus musculus with 4 samples.

Results

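The genes described here are the matrix metalloproteinases (Mmp), the ADAM and ADAMTS proteases, the protease-free ADAMTS-like proteins (Adamtsl) and the tissue inhibitors of metalloproteinases (Timp), measured in lesional facial skin of periostin-null mice. They were chosen by gene symbol: every symbol that starts with Mmp, Timp, Adam, Adamts or Adamtsl and a number. The rule found 58 of 17849 genes. Adam1a was set aside because all of its 765 tags lay in clusters that are listed under Mapkapk5 and Gm42878 too, which leaves 57 genes. Symbols of these families without an entry here, among them Mmp7, Mmp21, Mmp24, Mmp25, Adamts8 and Adamts16, were not analysed here.

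All 4 libraries belong to 1 group: lesional skin of C57BL/6 mice at postnatal day 28 with the genotype Nectin-cre(+);Ikk2FL/FL;Postn-/-. Ikk2, a kinase of the NF-kB pathway encoded by Ikbkb, is flanked by loxP sites for deletion by Cre, and Postn, the gene of the matrix protein periostin, is knocked out in all of them. The model is called FADS, a dermatitis of the face. The Cre is spelled as the labels have it, and they do not say which cells express it or whether each library came from a separate animal, so the p-values here reflect how far these libraries differ, a spread that can be technical. No genotypes are compared: levels are set against each other between genes, and single libraries with each other. Libraries are numbered 1 to 4 as in the labels, and 1 and 2 share the first part of their sample code, as do 3 and 4.

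Cap analysis of gene expression (CAGE) counts tags at the capped 5′ end of RNAs, so a count does not grow with transcript length and levels of different genes can be compared. The libraries held 18179860, 18823630, 17630119 and 17939565 tags, and 1 tag was worth 0.0531 to 0.0567 CPM (tags scaled to a common library total). Postn itself had 15, 6, 10 and 7 tags, 0.525 ± 0.225 CPM (SD, n = 4, as for every ± value here). Ikbkb, the other targeted gene, had 675, 626, 669 and 656 tags, 36.2 ± 2.06 CPM; tags count starts in whole skin and do not show whether the floxed part was removed. All 10 fibroblast, 6 basal keratinocyte and 5 suprabasal keratinocyte markers had at least 3 tags in every library. The libraries differed in makeup: salivary and other gland markers, 5 of 6 analysed, summed to 31741 CPM in library 2 and 4714 CPM in library 4 but 13.4 and 11.7 CPM in libraries 1 and 3, and a hair follicle list summed to 7784, 7125, 3571 and 5234 CPM. The levels are those of whole skin, in which fewer cells of a type and less RNA per cell cannot be told apart.

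Matrix metalloproteinases are zinc-dependent enzymes that are made as inactive precursors and cut collagens, gelatin, laminins and proteoglycans outside the cell; membrane-anchored members act at the cell surface. ADAM proteases shed membrane proteins such as Notch, TNF and ligands of the EGF receptor, and the secreted ADAMTS proteases trim procollagens, aggrecan and versican. TIMPs bind the active site of these enzymes and inhibit them, each with its own range of targets. In skin the families take part in wound closure, hair growth and the turnover of dermal collagen.

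The starts of these genes came in contrasting kinds, which the sequences show. Many soluble Mmp genes of the mouse lie side by side on chromosome 9, and 9 of them had tags here: Mmp13, Mmp12, Mmp1b, Mmp3, Mmp1a, Mmp10, Mmp8, Mmp27 and Mmp20, from 7272524 to 7628203. The 4 with the most tags are printed first, from 130 bases before the first base of their main tag cluster. Mmp14, Adam17 and Adamts1, high members from elsewhere in the genome, follow for comparison. The sequences are from RefSeq promoters on GRCm38.p6, 5′ to 3′ on the gene's strand, and capitals mark the TATA box letters TATAAA, the AP-1 core TGANTCA (N being any base) and the bases that the tag cluster covers. They lie at chr9:7272394-7272547, chr9:7347272-7347423, chr9:7445679-7445871 and chr9:7502209-7502361 on the plus strand, at chr14:54431437-54431647 on the plus strand, and at chr12:21373583-21373789 and chr16:85803064-85803313 on the minus strand. The clusters of Mmp3, Mmp14 and Adam17 run on past the last base shown.
Mmp13: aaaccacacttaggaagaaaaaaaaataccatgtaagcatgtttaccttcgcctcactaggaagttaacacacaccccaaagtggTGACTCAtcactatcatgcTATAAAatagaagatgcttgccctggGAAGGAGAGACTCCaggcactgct
Mmp12: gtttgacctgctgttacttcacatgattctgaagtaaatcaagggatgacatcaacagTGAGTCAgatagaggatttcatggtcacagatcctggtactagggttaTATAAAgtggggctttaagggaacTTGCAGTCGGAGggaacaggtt
Mmp3: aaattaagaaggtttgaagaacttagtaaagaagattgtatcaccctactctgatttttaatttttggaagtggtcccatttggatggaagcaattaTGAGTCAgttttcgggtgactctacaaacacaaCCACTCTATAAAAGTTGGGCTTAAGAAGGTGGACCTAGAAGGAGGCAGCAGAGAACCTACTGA
Mmp10: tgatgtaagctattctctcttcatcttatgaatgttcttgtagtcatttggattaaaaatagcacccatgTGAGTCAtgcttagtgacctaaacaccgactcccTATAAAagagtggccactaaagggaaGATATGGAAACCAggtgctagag
Mmp14: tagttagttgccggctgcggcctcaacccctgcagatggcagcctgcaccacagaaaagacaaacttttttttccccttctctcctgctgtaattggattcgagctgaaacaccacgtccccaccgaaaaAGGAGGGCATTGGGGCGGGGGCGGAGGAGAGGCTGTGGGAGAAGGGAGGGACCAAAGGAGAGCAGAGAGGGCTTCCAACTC
Adam17: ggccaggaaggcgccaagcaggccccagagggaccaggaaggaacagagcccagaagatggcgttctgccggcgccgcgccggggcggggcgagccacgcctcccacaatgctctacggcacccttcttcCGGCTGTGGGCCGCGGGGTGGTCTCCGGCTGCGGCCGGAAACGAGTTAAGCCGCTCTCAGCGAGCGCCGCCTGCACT
Adamts1: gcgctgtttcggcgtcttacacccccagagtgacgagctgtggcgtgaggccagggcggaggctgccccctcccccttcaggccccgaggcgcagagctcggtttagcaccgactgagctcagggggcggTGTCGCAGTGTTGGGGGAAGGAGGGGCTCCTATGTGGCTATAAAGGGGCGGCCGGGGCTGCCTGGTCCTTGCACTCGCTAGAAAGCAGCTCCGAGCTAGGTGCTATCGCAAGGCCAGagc

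In Mmp13, the collagenase that cuts fibrillar collagen in mouse skin, the main cluster spanned 13 bp from its first to its last base, and the printed TATAAA begins 26 bases before its first base, after a TGACTCA that begins 45 bases before it. Mmp12, the macrophage elastase, and Mmp10, stromelysin-2, had the same order of elements before clusters of 11 and 12 bp. Their TATAAA begins 24 bases before the cluster in Mmp12 and 26 in Mmp10, and their TGAGTCA 72 bases before it in Mmp12 and 60 in Mmp10. In Mmp3, stromelysin-1, TGAGTCA begins 33 bases before the cluster, while TATAAA lies inside a wider cluster of 71 bp, beginning 6 bases after its first base. Adamts1 holds TATAAA too, 38 bases inside a cluster of 116 bp. The stretches of Mmp14 and Adam17 hold neither motif, and their clusters spanned 151 and 207 bp.

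Promoter windows of 300 bases (250 before and 50 after the annotated start) were found for 39 of the 57 genes. Of these windows 35 overlapped the gene's main cluster, and those of Mmp27, Timp1, Timp4 and Adamts13 did not. The window of the locus gene Mmp27, which held neither motif, thus does not describe the start seen here. TATAAA on the gene's own strand was present in 7 of the 9 windows of the chromosome 9 locus (Mmp10, Mmp12, Mmp13, Mmp1a, Mmp1b, Mmp20 and Mmp3), in 0 of 5 other Mmp windows and, among the rest, in Adamts1 and Adamtsl2; over 32851 RefSeq promoters the share was 8.32%. On either strand it was found in 8 of the 9 locus windows, and in 13.6% of all promoters. TGANTCA, which reads the same on both strands, was in the same 7 locus genes and in Adam19, against 7.81% of all promoters. The locus windows had a median GC content of 42.7% and 1 CpG, against 66.2% and 22.5 in the 30 other windows and 52.7% and 7 over all promoters. The motifs did not overlap each other in the member windows. A match describes the letters in a window and does not show that a factor bound there.

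The main clusters of the 9 locus genes were 3 to 71 bp wide with a median of 11 bp, and those of the 10 other Mmp genes were 74 to 336 bp wide with a median of 144.5 bp, so the ranges did not overlap. Clusters of few tags tend to span few bases, so genes whose main cluster held 300 to 1100 tags over the 4 libraries were set side by side. In that band 3 of the 4 locus genes were at most 20 bp wide, Mmp3 being the exception, against 4.21% of 3726 genes, whose median was 115 bp. The 7 other Mmp genes in the band (Mmp9, Mmp11, Mmp15, Mmp16, Mmp19, Mmp23 and Mmp28) spanned 85 to 336 bp. Among the 17 Adam, Adamts, Adamtsl and Timp genes in the band, 0 were that narrow, with a range of 33 to 243 bp.

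**Figure D1:**
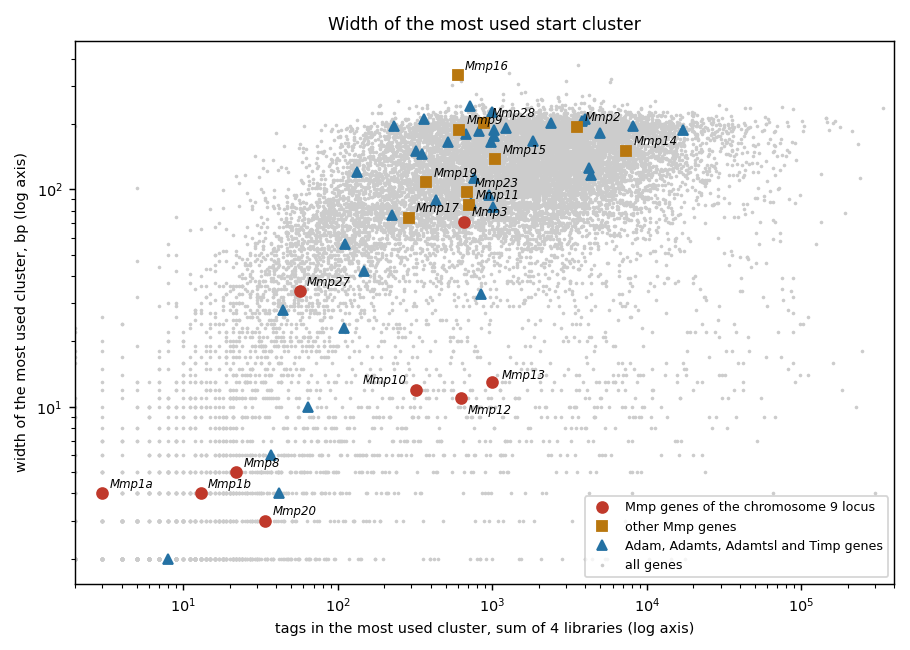
Width in bp of each gene's main tag cluster (vertical, log scale) against the tags in that cluster summed over the 4 libraries (horizontal, log scale), for the Mmp genes of the chromosome 9 locus, the other Mmp genes, the remaining members and all genes. Every locus gene lies at or under 71 bp, and every other Mmp gene lies at or above 74 bp.

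Of the 57 genes, 54 had at least 3 tags in every library, 47 averaged at least 1 CPM and 26 at least 10 CPM. Together they reached 1133, 1070, 1343 and 1265 CPM in libraries 1 to 4, 1203 ± 124 CPM on average. The 12 Adam genes gave 39.0% of this sum, the 19 Mmp genes 22.4%, the 17 Adamts genes 18.1%, the 4 Timp genes 16.0% and the 5 Adamtsl genes 4.58%. A single gene led each family: Adam10 held 51.0% of the Adam level, Mmp14 39.4% of the Mmp level, Adamts1 27.6% of the Adamts level, Timp3 58.5% of the Timp level and Adamtsl5 54.7% of the Adamtsl level.

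**Figure D2:**
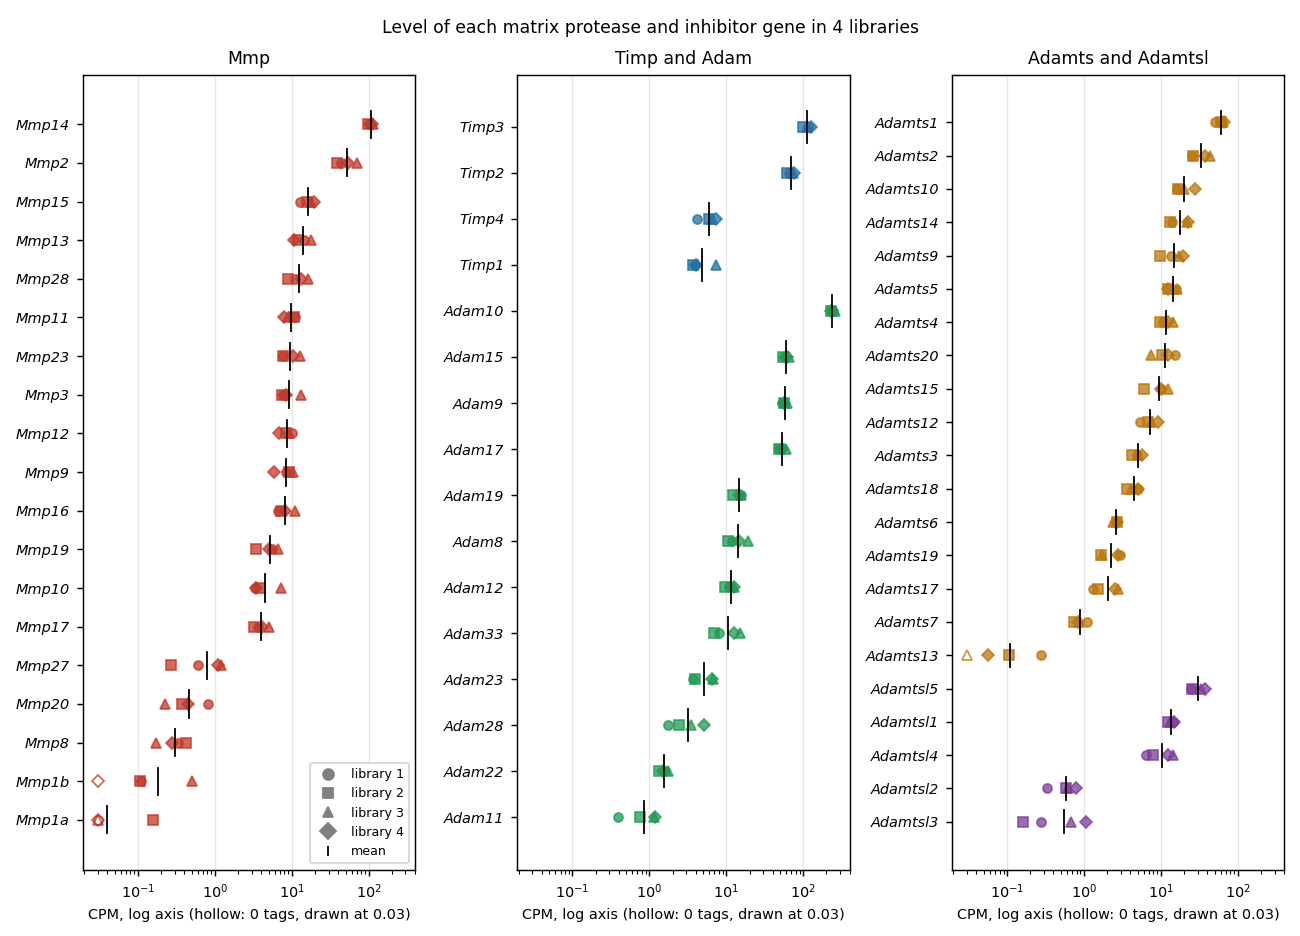
CPM (horizontal, log scale) of each of the 57 genes in each of the 4 libraries, by family and mean level, with the mean as a tick and counts of 0 as hollow points. Adam10 stands highest at 239 ± 14.2 CPM, followed by Timp3 at 113 ± 10.8 and Mmp14 at 106 ± 8.55 CPM.

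Among the Mmp genes the membrane-anchored Mmp14 and the gelatinase Mmp2, whose precursor Mmp14 activates at the cell surface with the help of Timp2, were highest. Mmp14 had 101, 96.6, 115 and 111 CPM in libraries 1 to 4, 106 ± 8.55 CPM. Mmp2 had 43.5, 38.8, 70.6 and 54.1 CPM, 51.7 ± 14.1 CPM. Every Mmp14 value exceeded every Mmp2 value, and both genes were above all other Mmp genes in every library; Mmp2 was highest in library 3 and lowest in library 2. The ratio of Mmp14 to Mmp2 within a library was 1.07 ± 0.27 on the log2 scale, 2.10-fold. The other gelatinase, Mmp9, had 8.36, 9.14, 10.3 and 5.80 CPM, and Mmp2 exceeded it by 2.61 ± 0.49 (log2), with no overlap. Of the other membrane-anchored enzymes, Mmp15 reached 16.4 ± 2.88 CPM, 2.71 ± 0.21 (log2) below Mmp14, Mmp16 8.26 ± 1.95 CPM and Mmp17 3.98 ± 0.763 CPM.

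Mmp13 was the main collagenase by level, with 14.5, 12.2, 18.0 and 10.5 CPM, 13.8 ± 3.24 CPM. Mmp8, the neutrophil collagenase, had 6, 8, 3 and 5 tags, 0.301 ± 0.106 CPM. Mmp1b had 2, 2, 9 and 0 tags and Mmp1a, like Mmp1b a mouse counterpart of human collagenase-1, had 0, 3, 0 and 0; a count of 0 allows up to 0.159 to 0.170 CPM (3 tags) at this depth. Mmp13 was thus the one collagenase gene above 1 CPM, and its 4 values overlapped with those of Mmp15 and Mmp28. Of the neutrophil markers other than S100a8 and S100a9, which keratinocytes also make, Ltf, which glands also make, had 3.96, 21.8, 6.07 and 12.7 CPM, Ngp had 3 tags in library 1 and fewer in the others, Camp had 0.441 ± 0.202 CPM, Csf3r 1.66 ± 0.491 CPM and Cxcr2 2.29 ± 0.294 CPM, while Ly6g, Elane and Mpo were not analysed here. Their part in the level of Mmp8 was not tested.

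The stromelysins were low; Mmp3 and Mmp10 cut proteoglycans and laminin and activate other Mmp precursors. Mmp11, stromelysin-3, had 11.1, 10.7, 9.02 and 7.86 CPM and was higher in libraries 1 and 2 than in 3 and 4. Mmp3 had 7.65, 7.44, 13.0 and 8.31 CPM, and Mmp10 had 3.36, 3.82, 7.26 and 3.46 CPM. Both were highest in library 3 and close together in the other libraries. Mmp11 and Mmp3 could not be ranked: their log2 ratio was 0.11 ± 0.52, positive in 2 of 4 libraries. Mmp12 reached 8.63 ± 1.43 CPM, beside a macrophage marker list that summed to 120 to 149 CPM with all 8 markers found in every library.

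Of the remaining Mmp genes, Mmp28, known as epilysin and made by keratinocytes, had 12.3 ± 3.11 CPM, Mmp23 9.58 ± 2.46 CPM and Mmp19 5.18 ± 1.35 CPM. Mmp27 stood at 0.794 ± 0.438 CPM. Mmp20, enamelysin, the enzyme of tooth enamel, had 15, 7, 4 and 8 tags, 0.467 ± 0.255 CPM. From Mmp15 down to Mmp17, each Mmp gene's values overlapped with those of the next in order, and Mmp27 and the genes below it lay apart, under all values of Mmp17.

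The inhibitors fell into a high and a low pair. Timp3, the member that binds to the matrix and inhibits Adam17 and aggrecanases as well as Mmps, had 114, 99.0, 113 and 125 CPM, 113 ± 10.8 CPM. Timp2 had 65.3, 61.9, 73.3 and 76.3 CPM, 69.2 ± 6.69 CPM. Timp4 had 4.13, 5.90, 6.52 and 7.36 CPM, and Timp1, a gene induced in inflammation and wounding, had 3.96, 3.72, 7.43 and 4.07 CPM. Timp3 lay above Timp2 in every library, both lay far above the other pair, and Timp1 and Timp4 overlapped. Timp2 was below Timp3 by a log2 ratio of −0.70 ± 0.08 and above Timp1 by 3.90 ± 0.41, 14.9-fold. Timp4 against Timp2 was −3.55 ± 0.29. Timp3 exceeded Timp1 by 4.60 ± 0.47 (log2), 24.3-fold. With only each gene's most used cluster counted, these ratios to Timp1 were 4.50 and 5.21, since Timp1 has a second start.

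Set against the enzymes they are known to bind, Timp2 was below Mmp14 in every library, with a log2 ratio of −0.62 ± 0.05, the smallest SD of the 23 pairs taken. Timp2 against Mmp2 was 0.45 ± 0.28, and the ranges of these genes overlapped. Timp1 against Mmp9, whose precursor it binds, was −0.84 ± 0.41 with overlapping ranges, and −1.44 from the most used clusters alone. Timp3 was above Adam17 by 1.10 ± 0.16 and above the aggrecanase Adamts5 by 2.99 ± 0.26. These are ratios of RNA starts and say nothing of protein or activity. Of the 23 pairs, 20 pointed the same way in all 4 libraries, and 6 had ranges that overlapped.

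**Figure D3:**
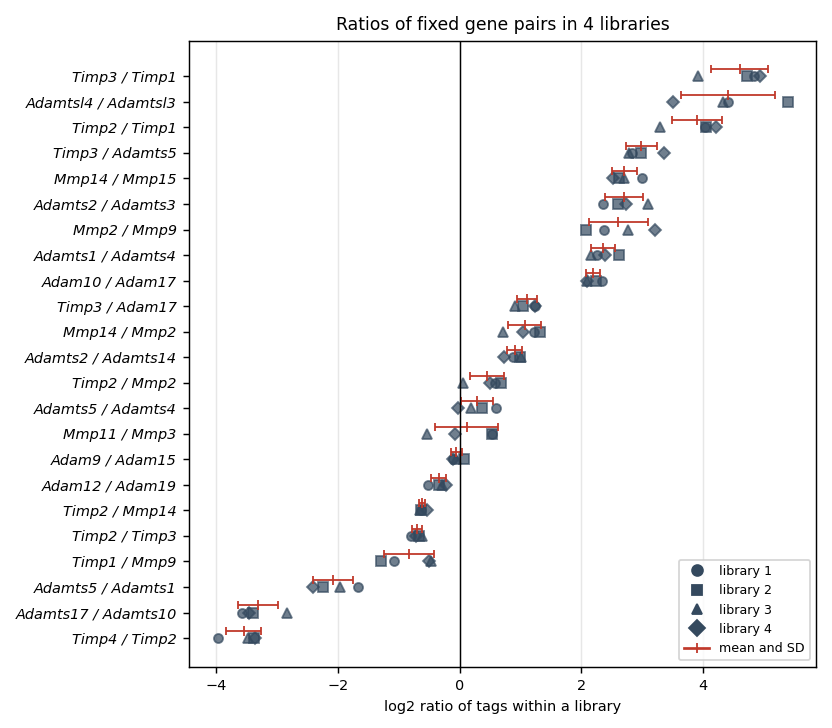
Log2 ratio of 23 gene pairs within each of the 4 libraries (points) with the mean and SD (bar), 0 meaning equal tags. Timp2/Mmp14 is the tightest at −0.62 ± 0.05, and Mmp11/Mmp3 straddles 0.

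Adam10, which sheds Notch receptors and cadherins, was the most abundant member. It had 245, 227, 256 and 227 CPM, 239 ± 14.2 CPM, and its lowest library lay above the highest of any other member. Adam15, Adam9 and Adam17, the TNF-releasing sheddase, came next among the Adam genes at 59.2 ± 4.62, 56.9 ± 3.78 and 52.4 ± 5.53 CPM, and their ranges overlapped. Adam10 exceeded Adam17 by 2.19 ± 0.12 (log2), 4.56-fold, in every library. Adam9 against Adam15 was −0.06 ± 0.09, with 3 of 4 libraries below 0. The meltrins Adam19 and Adam12 had 14.4 ± 1.46 and 11.4 ± 1.40 CPM, with Adam12 against Adam19 at −0.34 ± 0.12 (log2) in overlapping ranges. Adam8, an ADAM of leukocytes, had 14.0 ± 3.78 CPM and Adam33 10.6 ± 3.79 CPM. Adam28 had 1.76, 2.44, 3.52 and 5.07 CPM, with library 4 highest. The 3 ADAM proteins without an active protease site, of which Adam22 and Adam23 bind LGI proteins in nerve tissue, were low: Adam23 at 5.19 ± 1.60, Adam22 at 1.55 ± 0.179 and Adam11 at 0.858 ± 0.370 CPM.

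Of the ADAMTS proteases that cut versican and aggrecan, Adamts1 was highest. It had 50.5, 59.6, 64.5 and 65.2 CPM, 59.9 ± 6.77 CPM, above every value of the other Adamts genes. Adamts9, Adamts5 and Adamts4 had 14.9 ± 4.32, 14.2 ± 2.21 and 11.7 ± 2.09 CPM with overlapping ranges, and Adamts15 9.56 ± 2.55 CPM. Adamts1 exceeded Adamts4 by 2.36 ± 0.20 (log2), and Adamts5 lay below Adamts1 by −2.08 ± 0.33. Adamts5 against Adamts4 was 0.28 ± 0.26, positive in 3 of 4 libraries. Adamts20, which pigment cells of the mouse need to colonise the trunk skin, had 15.3, 10.4, 7.43 and 12.4 CPM. It was highest in library 1 and lowest in library 3, as was the sum of the hair follicle list given above. Within the list this held for Krt71, Krt25, Krt27, Msx2 and Lef1. Krt34 and Krt86 were lowest in library 4, and Shh was highest in library 4. The part of the list in the level of Adamts20 was not tested.

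Adamts2, Adamts14 and Adamts3 remove the N-terminal propeptide of procollagens. Adamts2 had 25.5, 26.0, 43.1 and 37.8 CPM, 33.1 ± 8.74 CPM. Adamts14 had 13.9, 13.0, 21.5 and 22.7 CPM, 17.8 ± 5.05 CPM. Both were higher in libraries 3 and 4 than in 1 and 2. Adamts3 was lower and flat at 4.97 ± 0.586 CPM. Adamts2 exceeded Adamts14 by 0.90 ± 0.13 (log2), 1.87-fold, and Adamts3 by 2.70 ± 0.31, 6.49-fold. The fibroblast list, led by the collagens, summed to 3729, 3312, 6277 and 5548 CPM, with all 10 markers found in every library. This list, Mmp2 and Timp2 were higher in libraries 3 and 4 as well. So were the basal and suprabasal keratinocyte, endothelial, skeletal muscle and neutrophil lists, while the other marker lists did not split this way. In deposited CPM 45.6% of all genes tested were higher in both of these libraries, so the split is not particular to fibroblast genes. The part of any list in these levels was not tested.

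Adamts10, which takes part in forming fibrillin microfibrils, had 20.1 ± 5.48 CPM, with its lowest value of 16.1 CPM in library 1 and its highest of 27.9 CPM in library 4. Its relative Adamts17 was at 2.04 ± 0.715 CPM and lay below it by a log2 ratio of −3.32 ± 0.33, or −2.72 from the most used clusters alone. Adamts12, which cuts cartilage oligomeric matrix protein, had 7.19 ± 1.60 CPM and Adamts7, with the same substrate, 0.883 ± 0.152 CPM. Adamts18, Adamts6 and Adamts19 had 4.46 ± 0.694, 2.59 ± 0.138 and 2.25 ± 0.668 CPM. Adamts13, the protease of von Willebrand factor, had 5, 2, 0 and 1 tags. The ADAMTS-like proteins, which bind microfibrils and lack a protease domain, were led by Adamtsl5 at 30.1 ± 6.16 CPM and Adamtsl1 at 13.7 ± 1.10 CPM. Adamtsl4, known for anchoring the eye lens, had 6.38, 7.81, 14.2 and 12.3 CPM, and lay 4.41 ± 0.77 (log2) above Adamtsl3, which had 3 to 19 tags a library. Adamtsl2 had 6 to 14 tags.

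Whether any gene differed between the 4 libraries by more than genes of its level do was tested across 14732 genes of at least 1 CPM, with limma on log2(CPM + 1) and Benjamini-Hochberg adjustment. Of all genes 56 passed, 0.38%, and of the 47 members tested 0 passed. At an unadjusted p under 0.05 there were 5 members (Mmp2, Adamts2, Adamts20, Adamtsl4 and Adam33), against 923 genes or 6.27%. The lowest adjusted p of a member in limma was 0.722, for Mmp2. On recovered tags, edgeR called 35 genes (0.238%) and 0 members. At an unadjusted p under 0.05 edgeR had 5 members, against 923 genes or 6.27%. DESeq2 flagged 513 genes (3.48%) and 0 members as dispersion outliers, a label that is not a test at an adjusted p. A p above the threshold does not show that the libraries were alike.

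The members' spread was still wider than that of all genes tested. With TMM scaling, the median range over the libraries was 0.59 on the log2(CPM + 1) scale for the 47 members and 0.28 for all 14732 genes; the members' median level was lower, at 11.4 CPM against 23.0 CPM. The largest ranges were those of Adam28 (1.07), Adamts20 (1.02), Adamtsl4 (0.97), Mmp10 (0.89), Adam33 (0.87) and Adamts9 (0.79). The smallest were those of Mmp14 (0.11), Adam15 (0.11), Timp2 (0.14) and Adam22 (0.15). The 1 CPM added before the log narrows the ranges of low genes, among them Adam22 at 1.55 CPM, so its place here depends on that setting. Mmp14 and Timp2, which act with Mmp2 at the cell surface, were thus among the members with the smallest ranges, while Mmp2 had a range of 0.69. Both are also among the members of highest level, of which Timp3 (0.17) and Adam10 (0.19) had small ranges too. Whether Mmp14 and Timp2 were steadier than genes of their level was not tested.

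Library 3 held the highest value of many members. In deposited CPM it was the highest library for 26 of 47 members, against 35.3% of all genes tested. Library 4 was highest for 16 (35.4% of all genes), library 1 for 5 (22.8%) and library 2 for 0 (6.48%). With TMM scaling the members' counts for libraries 1 to 4 were 8, 4, 23 and 12, against 25.3%, 24.6%, 27.1% and 23.0% of all genes. The 14 Mmp genes tested had median deviations from their own means of −0.07, −0.05, 0.31 and −0.05 on the log2(CPM + 1) scale with TMM, while medians over all genes stayed within 0.009 of 0. The endothelial, basal and suprabasal keratinocyte, fibroblast and macrophage lists were likewise at their highest in library 3 in deposited CPM. So was the neutrophil list, through S100a8 and S100a9. Of its other analysed markers, Csf3r was highest in library 3, Cxcr2, Camp and Ngp in library 1, and Ltf in library 2. The part of these lists in the members' counts was not tested.

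**Figure D4:**
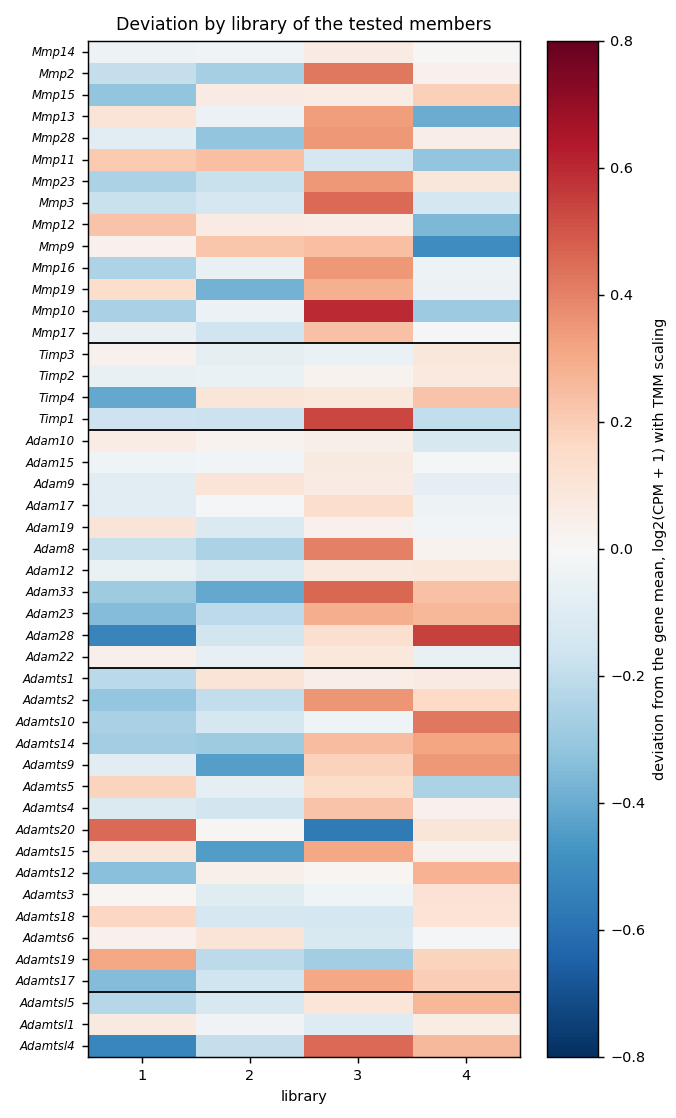
Deviation of each member from its mean over the 4 libraries (log2(CPM + 1), TMM scaling) in each library, as colour, by family. Family medians are not drawn. The Mmp median in library 3 lies 0.31 above the mean, and those of the other families lie 0.06 to 0.10 above it.

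The members were also set side by side by the first part of the sample code. In deposited CPM, both libraries 3 and 4 were above both libraries 1 and 2 for 30 of the 47 members, against 45.6% of all genes tested, and the reverse held for Mmp11 alone, against 11.5%. With TMM scaling the counts were 21 members (26.3% of all genes) and 3 members (28.6%), those 3 being Adamts6, Mmp11 and Mmp12. Adamts2, Adamts14, Adamts10, Adamtsl4, Adamtsl5, Adam33, Mmp2, Mmp14 and Timp2 were among those higher in libraries 3 and 4 under both scalings. What the code stands for is not given in the labels, so no test was made of it.

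Most members started at their annotated place and from a single cluster. The 57 genes had 105 clusters, and 32 genes had 1. The main cluster spanned an annotated start of the gene in 47 genes and lay within 100 bp of one in 52; that of Adamts5 lay 647 bp from the nearest annotated start. In 47 genes at least 95% of the tags were in the main cluster. After clusters within 100 bp on the same strand were joined, Adamts10 was the one gene of at least 5 CPM with a second start of over 20% of its tags. This start held 76, 76, 90 and 149 tags, 26.4% ± 2.32 of the gene's tags, within 3 bp at chr17:33528280-33528283 on the plus strand, in an intron 4269 bp after the main start and 31 bp before another annotated start. In Timp1, chosen after its values were seen because its level is just under 5 CPM, 34.5% ± 2.41 of the tags lay within 4 bp at chrX:20871028-20871032, in untranslated exon sequence 811 bp after the main start. By library the shares ran from 24.4% to 29.7% in Adamts10 and from 31.5% to 37.4% in Timp1, and each share was highest in the library where the gene's level was highest, library 4 for Adamts10 and library 3 for Timp1.

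Among low members, second starts with over 20% of the tags were found in Adamts19 (33.6% ± 6.30), Adam11 (28.9% ± 0.714) and Adamts6 (28.9% ± 5.70). They rested on 11 to 17 tags a library in Adamts19 and Adamts6 and on 2 to 6 in Adam11. In Adamts6 the second start spanned an annotated start. In Adamts19 it lay 38 bp after one, and in Adam11 it lay 5 bp before one. Adam12 had 13.4% ± 2.69 and Mmp15 11.0% ± 2.99 of their tags at a second start, and the other members less than 6%. Mmp14, with 9 clusters as deposited, had 1.29% ± 0.348 at its second start once neighbours were joined.

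**Figure D5:**
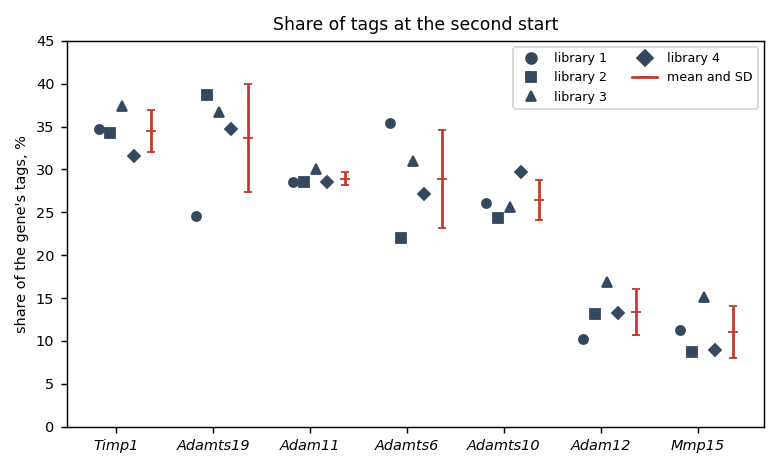
Share of a gene's tags (percent, vertical) at its second most used start in each of the 4 libraries, for the members with the highest shares, after joining clusters within 100 bp. Timp1 and Adamts10 keep shares of 31.5% to 37.4% and 24.4% to 29.7%.

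Other proteases, activators and inhibitors of the matrix that are no members were read from a list of 44 genes, of which 36 were analysed. Of these 36, 24 reached 10 CPM, and 0 (0.38% of all genes) passed the limma test of spread. At an unadjusted p under 0.05 there were 3 (Plau, Serpinb2 and Pcolce), against 6.27% of all genes tested. Furin, which cuts the precursors of Mmp14, Mmp11 and many ADAMs, had 88.3 CPM, Bmp1, the procollagen C-proteinase, 98.5 CPM, and Tspan5, a tetraspanin partner of Adam10, 123 CPM. The plasminogen activator Plau had 38.7 CPM, and its inhibitor Serpinb2 had 113, 132, 170 and 106 CPM. The receptor Plaur had 9.02, 8.07, 16.7 and 9.25 CPM. In both Serpinb2 and Plaur, library 3 was highest, as in Mmp3, Mmp10 and Timp1. Of the 36 genes, 5, 0, 20 and 11 were highest in libraries 1 to 4 in deposited CPM, against 22.8%, 6.48%, 35.3% and 35.4% of all genes tested.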

How the data were processed

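The deposited table, made by the authors, holds CPM (tags scaled to a common library total) for clusters of CAGE tag starts, each with a gene name or none. RNA was column-purified and libraries were made with a commercial kit, per the labels' protocols. BWA, HISAT2 and the mm9 build are named in the submitters' processing notes, while the sources used here do not give the clustering step. The coordinates fit GRCm38: 99.9% of named clusters lay within 1000 bp of their gene in GENCODE M21. Starts are uncertain by 1 bp.

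Dividing the deposited CPM by the worth of 1 tag gave whole numbers for 100% of values, to within 0.02 tags, and these tags were summed per gene. Detection required 3 tags (0.159 to 0.170 CPM), a floor that covers counting error only. Spread between libraries was tested in limma 3.58.1 on log2(CPM + 1) with TMM factors of 0.988, 0.931, 1.04 and 1.05, a robust trended prior (3.49 prior degrees of freedom), genes of at least 1 CPM on average, an upper-tailed F test, and a Benjamini-Hochberg threshold of 0.05. The test was tried on simulated tags. Alternatives were edgeR 4.0.16 and the dispersion outliers of DESeq2 1.42.0 on recovered tags, other scalings, pseudocounts and filters, and each library left out. Ratios added 0.5 tags. Members, gene lists, pairs and tests were chosen with earlier results of these data known. Named were all Timp, all Mmp of at least 1 CPM, the highest Adam, Adamts and Adamtsl genes, both genes of each pair, the extremes of range, and members of at least 5 CPM with a second start of at least 20%; genes named beyond that were chosen after their values were seen.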

Additional observations from a re-analysis of the deposited data

Results flagged for a closer look

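In 93 values with 4 libraries each, 7 had 1 library set apart from the other 3 by a gap above the limit of Dixon's test, and chance alone does this in about 1 in 20 groups. Library 3 was the one apart in Mmp3 (13.0 CPM, the others 7.44 to 8.31), Timp1 (7.43 CPM, the others 3.72 to 4.07), Mmp10 (7.26 CPM, the others 3.36 to 3.82) and, downwards, Adamts6 (2.38 CPM, the others 2.64 to 2.68). The 3 genes that were high there are an inhibitor and both stromelysins of the chromosome 9 locus. Mmp1a had 0.159 CPM in library 2 and 0 elsewhere, which is 3 tags in all. The log2 ratio of Timp2 to Mmp14 was −0.54 in library 4 and −0.65 to −0.63 in the others. The second start of Adam11 held 30.0% of the tags in library 3 and 28.6% in the others, from 2 to 6 tags.

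Clusters without a gene name, which enter no member's level, were found in or beside members with at least 100 tags in all. Inside Adamts6, on the opposite strand in an intron 144348 bp after its main start, a cluster of 7 bp had 6.63 ± 0.578 CPM, more than Adamts6 itself at 2.59 CPM. In untranslated exon sequence of Adamtsl4, on its strand and 2251 bp after the main start, a cluster had 4.52 ± 1.51 CPM. At Mmp14, an opposite-strand cluster 714 bp after the main start had 1.91 ± 0.443 CPM and a same-strand cluster in the untranslated end of the gene, 9496 bp after the start, 1.71 ± 0.498 CPM. On the strand opposite to Adam15, 99 bp before its main start, a cluster had 1.61 ± 0.421 CPM.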

How the results depend on the processing

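No member passed the test of spread in limma or edgeR, under any scaling, pseudocount or filter tried, or with any library left out. DESeq2 flagged 0 members. The count over all genes, 56 in limma, was 35 in edgeR. DESeq2 flagged 513 genes as dispersion outliers, which is not a test at an adjusted p. In limma the count was 34 with DESeq2 size factors and 104 with no scaling beyond CPM. It was 0 when 10 tags were required in every library (920 at an unadjusted p under 0.05). With a library left out it was 10 to 111, the extremes being without libraries 4 and 3. The cause was not tested. From the most used cluster alone, the log2 ratios were 4.50 for Timp2/Timp1, 5.21 for Timp3/Timp1, −0.56 for Timp2/Mmp14, −1.44 for Timp1/Mmp9, −0.48 for Adam12/Adam19 and −2.72 for Adamts17/Adamts10, since the smaller clusters of Timp1, Mmp14, Adam12 and Adamts10 then no longer count; no ratio changed sign. The same setting moved the levels of Adam12 to 9.84, Adamts10 to 13.2, Adamts19 to 1.52 and Adamts6 to 1.84 CPM. Of all recomputed values, 684 stayed within their limits and 22 did not, but many of the 684 could not have left them. For levels, sums, ratios and shares the limit was the SD, and leaving out 1 library cannot move a mean that far. Leaving out clusters listed under several genes changed nothing, as no analysed member had any. Averaging the libraries by sample code first gives the same mean level. The count is thus no measure of stability. The number of members highest in libraries 1 and 2 was 8 and 4 with TMM scaling, against 25.3% and 24.6% of all genes tested. For the 26 members at 10 CPM and over, it was 2, 0, 14 and 10 in libraries 1 to 4 in deposited CPM. The shares of all genes of that level were 25.2%, 5.13%, 35.2% and 34.5%. Sums of the families moved by less than their SD with TMM scaling. The other settings for these sums could not have shown a move. A mean over fewer of the same libraries cannot differ from the full mean by the SD. That holds with any library left out and for libraries 1 and 3 alone. The latter setting was chosen after seeing the data with the gland markers of libraries 2 and 4 in view. At least 10 tags in every library were found for 48 of 57 members, and depth limits the values of the rest. No paired analysis was possible because the libraries form 1 group.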
